A study of Mus musculus with 3 samples.

Results

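The Notch pathway was followed through 10 of its genes in single-nucleus RNA of differentiated neurospheres: the ligands Dll1, Dll3 and Jag1, the receptors Notch1, Notch2 and Notch3, the nuclear mediators Rbpj and Maml2, and the target genes Hes1 and Hes5. They were taken by symbol, and all 10 were present among the 30559 genes of the count matrices. Neural stem cells were taken from the subventricular zone of newborn C57BL/6 mice, grown as neurospheres and then differentiated, and nuclei were collected at 15 days in vitro from a pool of about 15 cultures per condition. The 3 conditions had 1 library each, namely control, CBP-ablated (genotype CBPf/f, a floxed Crebbp gene) and p300-ablated (genotype p300f/f, a floxed Ep300 gene). According to the methods of the study the floxed genes were recombined by a lentivirus that carried Cre fused to mCherry, control cultures received a virus for red fluorescent protein, and marked cells were sorted and grown as clonal secondary neurospheres. The sample labels name tamoxifen as the treatment of all 3 samples, controls included, and the line of mice behind the control cultures was not stated. With a pool of cultures as the only library of a condition, no test between conditions could be made, and every interval given here is a 95% interval for counting error only. The words after CBP ablation and after p300 ablation stand for the libraries with those labels.

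Notch receptors are cut and release their intracellular part when a ligand on a neighbouring cell engages them. That part enters the nucleus, joins the DNA-binding protein RBPJ, and a Mastermind-like protein such as MAML2 then recruits the acetyltransferases CBP and p300 to the complex. In the brain, the pathway is known for keeping neural stem cells undifferentiated through the Hes repressors, while cells that set out to become neurons or oligodendrocyte precursors raise Delta-like ligands and signal to their neighbours.

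The bases before the start site of the target gene Hes5 and of the ligand Dll1 are shown because these are the stretches where the complex and the proneural factors are known to act. Capitals mark the core of the RBPJ site, TGGGAA, and the E-box CAGCTG, each searched on both strands. The 250 bases upstream of the start site come from RefSeq (GRCm38.p6) and read 5′ to 3′ on the strand of the gene: Hes5 at chr4:154960673-154960922 (plus strand) and Dll1 at chr17:15376933-15377182 (minus strand).
Hes5: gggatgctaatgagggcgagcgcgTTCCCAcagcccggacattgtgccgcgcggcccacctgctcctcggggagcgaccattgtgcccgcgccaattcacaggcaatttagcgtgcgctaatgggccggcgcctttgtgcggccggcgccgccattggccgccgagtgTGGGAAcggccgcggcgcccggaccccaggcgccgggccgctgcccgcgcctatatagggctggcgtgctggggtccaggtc
Dll1: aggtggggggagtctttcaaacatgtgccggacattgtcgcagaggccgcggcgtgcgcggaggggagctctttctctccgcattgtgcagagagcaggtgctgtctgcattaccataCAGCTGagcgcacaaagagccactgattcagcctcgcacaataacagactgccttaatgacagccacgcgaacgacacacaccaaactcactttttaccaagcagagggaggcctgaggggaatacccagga
The Hes5 stretch held 2 matches to the RBPJ core, in opposite directions, and the Dll1 stretch held 1 match to the E-box CAGCTG. Other forms of the E-box were not searched for and are not marked. RefSeq windows were at hand for 9 of the 10 genes (12 windows), all but Hes1. A match to the RBPJ core was found for 3 of these 9 genes (Hes5, Rbpj and Maml2) and in 21.6% of all 32851 promoter windows of that length. For Maml2 it lay only in the window of a start site inside the gene, at 13662460. The shares are per window, while a gene with more than 1 window had more than 1 chance of a match. The E-box CAGCTG was found for the 3 ligands, Dll1, Dll3 and Jag1, and in 13.0% of all windows. The window of Dll3 is not shown because GENCODE places it in an exon of a longer transcript. The letters are a description of these windows, and whether a protein bound there was not measured.

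On GRCm38, with the identifiers and spans of GENCODE, Dll1 (ENSMUSG00000014773) lies on chromosome 17 from 15367354 to 15376872, Dll3 (ENSMUSG00000003436) on chromosome 7 from 28293553 to 28302238 and Jag1 (ENSMUSG00000027276) on chromosome 2 from 137081456 to 137116644. The receptor genes are Notch1 (ENSMUSG00000026923; chromosome 2, 26457903 to 26516663), Notch2 (ENSMUSG00000027878; chromosome 3, 98013527 to 98150361) and Notch3 (ENSMUSG00000038146; chromosome 17, 32120820 to 32166852). Rbpj (ENSMUSG00000039191) spans 53466152 to 53657362 on chromosome 5 and Maml2 (ENSMUSG00000031925) 13297957 to 13709388 on chromosome 9. Hes1 (ENSMUSG00000022528) spans 30064384 to 30067796 on chromosome 16 and Hes5 (ENSMUSG00000048001) 154960923 to 154962371 on chromosome 4. Counts covered exons and introns over each span.

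The control, CBP-ablated and p300-ablated libraries held 4884, 3017 and 4648 nuclei with 16312170, 12748336 and 18876682 UMIs (unique molecular identifiers, each the count of a captured RNA molecule), and any pair of libraries shared between 1 and 7 cell barcodes. Levels are given as CPM, the UMIs of a gene scaled to a total of 1000000 UMIs in the library or in the class of nuclei. Clustering without the Notch genes gave 13 clusters, of which 11 took 10 class names from marker genes, each written as X-like because the names rest on markers alone, and the study had picked many of these markers on the libraries analysed here. Cluster 10, in which 61.7% of nuclei were called doublets, and cluster 12, with Cenpf, Cdkn1a, Ubb and Btg2 among its leading genes and a median of 1493 UMIs per nucleus, stayed without a name. The libraries differed in makeup: the astrocyte-like class held 1277 control nuclei and 0 nuclei in both ablated libraries, and oligodendrocyte-like nuclei were 3.28% of control, 16.1% of the CBP-ablated and 4.15% of the p300-ablated nuclei. RNA of the floxed genes did not check the labels: Crebbp stood at 334.8 CPM in control and 369.5 after CBP ablation, and Ep300 at 113.8 CPM in control and 115.3 after p300 ablation. The recombined part is 1 exon, and counts over a whole gene need not fall with it. Citing earlier work, the study states that recombined Ep300 yields neither mature mRNA nor protein. It also reports staining without CBP in differentiating neurospheres given Cre. Why the Ep300 counts here were not lower was not tested.

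Over whole libraries, the median of the 10 genes lay below control in both ablated libraries. Of the 9 genes that reached 100 UMIs in a comparison (all but Hes5), 3 were lower after CBP ablation by a log2 ratio of at least 0.5 (Jag1, Notch3 and Notch1), where 12.2% of the 11883 genes measured were, and 0 were higher, where 10.6% were. Jag1 alone was lower by at least 1, as were 3.99% of all genes, and 0 were higher by that much, beside 2.89%. In the p300-ablated library 3 of 9 were lower by at least 0.5 (Dll3, Notch3 and Dll1), beside 10.3% of 12247 genes, and 0 were higher, beside 6.01%, while 0 were lower by at least 1, beside 2.12%, or higher, beside 0.694%. The count of 0 higher by 0.5 hung on the limit, since Hes1 was at 0.4998. The median log2 ratio of the 10 genes was -0.42 after CBP ablation and -0.27 after p300 ablation. These medians include Hes5, while those of all genes, 0.06 and -0.03, were over genes with at least 100 UMIs. Among the 9 genes that reached 100 UMIs the middle value was -0.36 (Dll1) after CBP ablation and -0.09 (Rbpj) after p300 ablation. Both comparisons used the same control library. A sum over a whole library cannot tell fewer nuclei of a type from less RNA per nucleus, so each gene is also given with every class weighted equally, over the classes with at least 50 nuclei on both sides (10 for the CBP-ablated and 11 for the p300-ablated library). A class with no UMIs of a gene adds no width to the interval of such a ratio. These intervals are therefore too narrow for genes with few UMIs. Under equal weights the median of the 10 genes after CBP ablation was -0.024, and after p300 ablation it was -0.22. The unnamed cluster 12, with few UMIs, weighs as much as a large class in these values, and without it, an alternative chosen after seeing the data, the medians were 0.07 and -0.18.

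**Figure D1:**
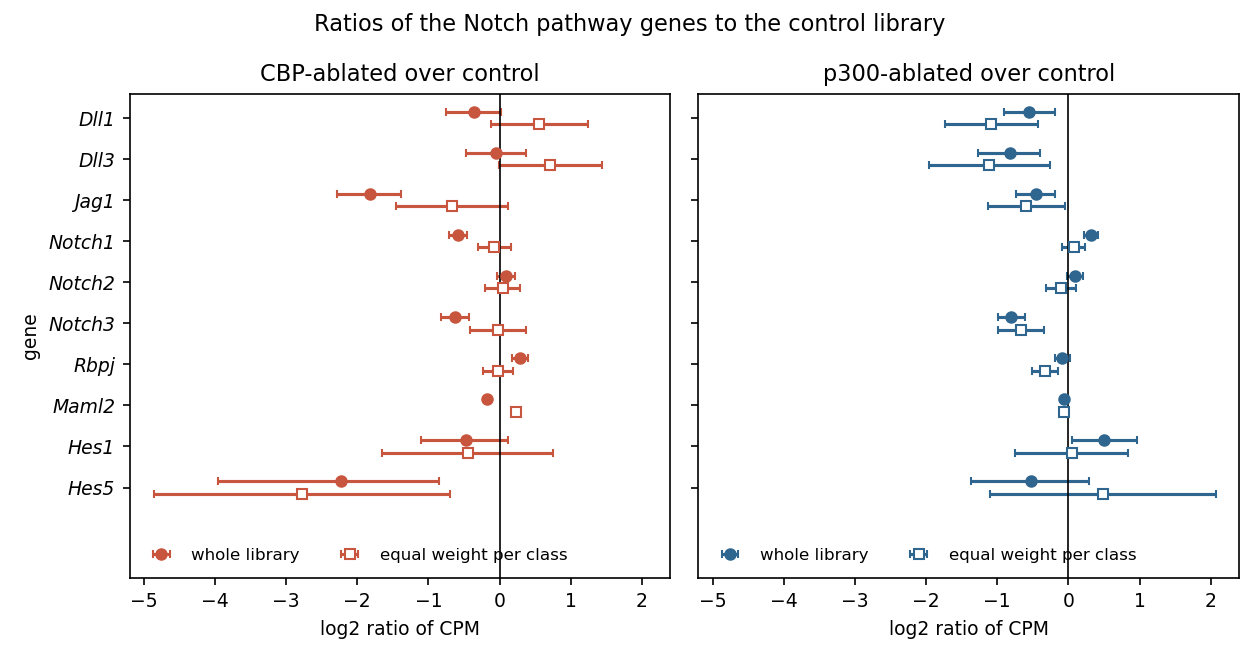
Log2 ratio of CPM to the control library for each gene, in the CBP-ablated (left) and p300-ablated (right) library, as whole-library sums (filled circles) and with equal weight per class (open squares). Bars are 95% counting intervals, too narrow for the open squares where a class held no UMIs of the gene. Jag1 lies at -1.82 and -0.67 after CBP ablation by the 2 measures, and Dll3 at -0.83 and -1.11 after p300 ablation.

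Jag1, the ligand of the Jagged type, showed the largest ratio among the genes with 100 UMIs. It had 240 UMIs in control (14.7 CPM), 53 after CBP ablation (4.16 CPM) and 202 after p300 ablation (10.7 CPM). The CBP-ablated library was therefore lowest, at a log2 ratio of -1.82 (-2.28 to -1.39), and the p300-ablated library lay between, at -0.46 (-0.74 to -0.18). Part of the control level came from classes that the ablated libraries lacked or held less of: astrocyte-like nuclei gave 95 of the 240 control UMIs, and the highest level of any class was in microglia-like nuclei, at 47.2 CPM over the 3 libraries. Without the astrocyte-like nuclei the ratio was -1.49 (-1.97 to -1.03) after CBP ablation and -0.13 (-0.44 to 0.19) after p300 ablation, and without the microglia-like nuclei as well it was -1.40 and 0.03. All 6 microglial and all 8 astrocyte markers were seen in each library. Microglial markers summed to 125 CPM in control, 69.1 after CBP ablation and 58.2 after p300 ablation, and astrocyte markers to 9642, 2161 and 3937 CPM. The share of these classes in the remaining ratio was not tested.

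Within a class, Jag1 could be compared where at least 50 UMIs were counted. In NPC/OPC-like nuclei, a mix of neural progenitors and oligodendrocyte precursors, it stood at 20.4 CPM in control, 10.5 after CBP ablation and 16.6 after p300 ablation. The CBP-ablated ratio there was -0.96 (-1.90 to -0.12), from 71 control UMIs and 14 in the ablated library, and the p300-ablated interval included 0. In cluster-5-like nuclei, the class marked by Kcnj6, Nell2 and Cacng4 that the study called immature neurons, Jag1 was at 11.2, 6.76 and 18.6 CPM. The p300-ablated interval there included 0, and the CBP-ablated comparison fell short of 50 UMIs with 16 and 7. With every class weighted equally the Jag1 ratio was -0.67 (-1.45 to 0.11) after CBP ablation, or -1.01 (-1.80 to -0.22) without cluster 12, and -0.59 (-1.13 to -0.05) after p300 ablation. Microglia-like nuclei entered these ratios with 66.7 CPM in control, 28.9 after CBP ablation and 21.3 after p300 ablation. The ablated values rested on 3 UMIs each and the control value on 19, and their part in the ratios was not tested.

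Dll1, a Delta-like ligand that activates receptors on neighbouring cells, had 148 UMIs in control (9.07 CPM), 90 after CBP ablation (7.06 CPM) and 117 after p300 ablation (6.20 CPM). Dll3, a divergent Delta-like protein known for acting within the cell that makes it, had 115 UMIs (7.05 CPM), 87 UMIs (6.82 CPM) and 75 UMIs (3.97 CPM). Both ligands were lowest after p300 ablation. Their ratios there were -0.55 (-0.91 to -0.19) for Dll1 and -0.83 (-1.27 to -0.40) for Dll3, while after CBP ablation they were -0.36 (-0.76 to 0.03) and -0.05 (-0.47 to 0.37). When nuclei with at least 1500 UMIs were thinned to 1500 and the others left out, 32 to 40 UMIs of Dll3 remained in a library. The Dll3 ratio was then -0.28 after p300 ablation and 0.59 after CBP ablation. Dll1 after the same thinning was at 8.05 CPM in control, 7.53 after CBP ablation and 6.35 after p300 ablation. It was then no longer lower by 0.5 after p300 ablation. The size of either difference was thus not fixed, and depth and the loss of nuclei were not told apart. Without the astrocyte-like nuclei, which held little of either ligand, the ratios after p300 ablation were -0.83 (-1.20 to -0.47) for Dll1 and -1.11 (-1.55 to -0.67) for Dll3, and after CBP ablation -0.65 (-1.05 to -0.25) and -0.33 (-0.75 to 0.10).

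Dll1 and Dll3 shared their classes. Cluster-5-like and NPC/OPC-like nuclei together held most UMIs of both, 27.6% and 35.5% for Dll1 and 26.4% and 45.8% for Dll3. RGC/PSC-like nuclei (radial glia or stem cells) came last, with Dll1 at 1.35 CPM from 9 UMIs and Dll3 at 0.599 CPM from 4 UMIs. Their ranges over the libraries overlapped those of the class above. Dll1 was at 21.8 CPM in cluster-5-like and 10.7 in NPC/OPC-like nuclei over the 3 libraries, and its 39.4 CPM in cluster 12 rested on 17 UMIs. Cluster-5-like nuclei lay above NPC/OPC-like nuclei for Dll1 in each library, though the ranges of neighbouring classes over the libraries overlapped down to cluster 10, at 9.11 CPM. For Dll3 the order changed between libraries: cluster-5-like nuclei were at 5.39 CPM and NPC/OPC-like nuclei at 7.20 after p300 ablation, with overlapping intervals. Among the 1046 NPC/OPC-like nuclei of the control library 49 had a Dll1 UMI, 46 a Dll3 UMI and 5 had both. Either ligand was seen in so few nuclei that this overlap cannot show whether they share nuclei.

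In NPC/OPC-like nuclei both ligands were lower after p300 ablation. Dll1 was at 14.3 CPM in control, 10.5 after CBP ablation and 8.93 after p300 ablation, with a p300-ablated ratio of -0.68 (-1.24 to -0.12). Dll3 was at 15.5, 17.2 and 7.20 CPM, with a p300-ablated ratio of -1.10 (-1.69 to -0.52). In that class and comparison 0.527% of 9858 genes were lower by at least 1, and Dll3 was the only one of the 10 Notch genes among them. The CBP-ablated intervals included 0 for both ligands, at -0.45 (-1.42 to 0.43) and 0.15 (-0.62 to 0.88).

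In cluster-5-like nuclei Dll1 was at 28.0 CPM in control, 29.9 after CBP ablation and 13.2 after p300 ablation, and Dll3 at 21.0, 30.9 and 5.39 CPM. The p300-ablated ratio of Dll1 was -1.08 (-1.84 to -0.34), beside 1.07% of 6799 genes lower by at least 1, and Dll3 fell short of 50 UMIs with 30 and 11. With equal class weights the p300-ablated ratios were -1.08 (-1.74 to -0.43) for Dll1 and -1.11 (-1.96 to -0.26) for Dll3, or -0.85 (-1.33 to -0.37) and -0.84 (-1.64 to -0.04) without cluster 12. The CBP-ablated ratios under equal weights were above 0, at 0.56 (-0.12 to 1.24) and 0.71 (-0.01 to 1.44), and cluster 12 entered the Dll1 value with 77.2 CPM from 8 UMIs. Without that cluster they were 0.32 (-0.23 to 0.86) and 0.35 (-0.14 to 0.84).

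**Figure D2:**
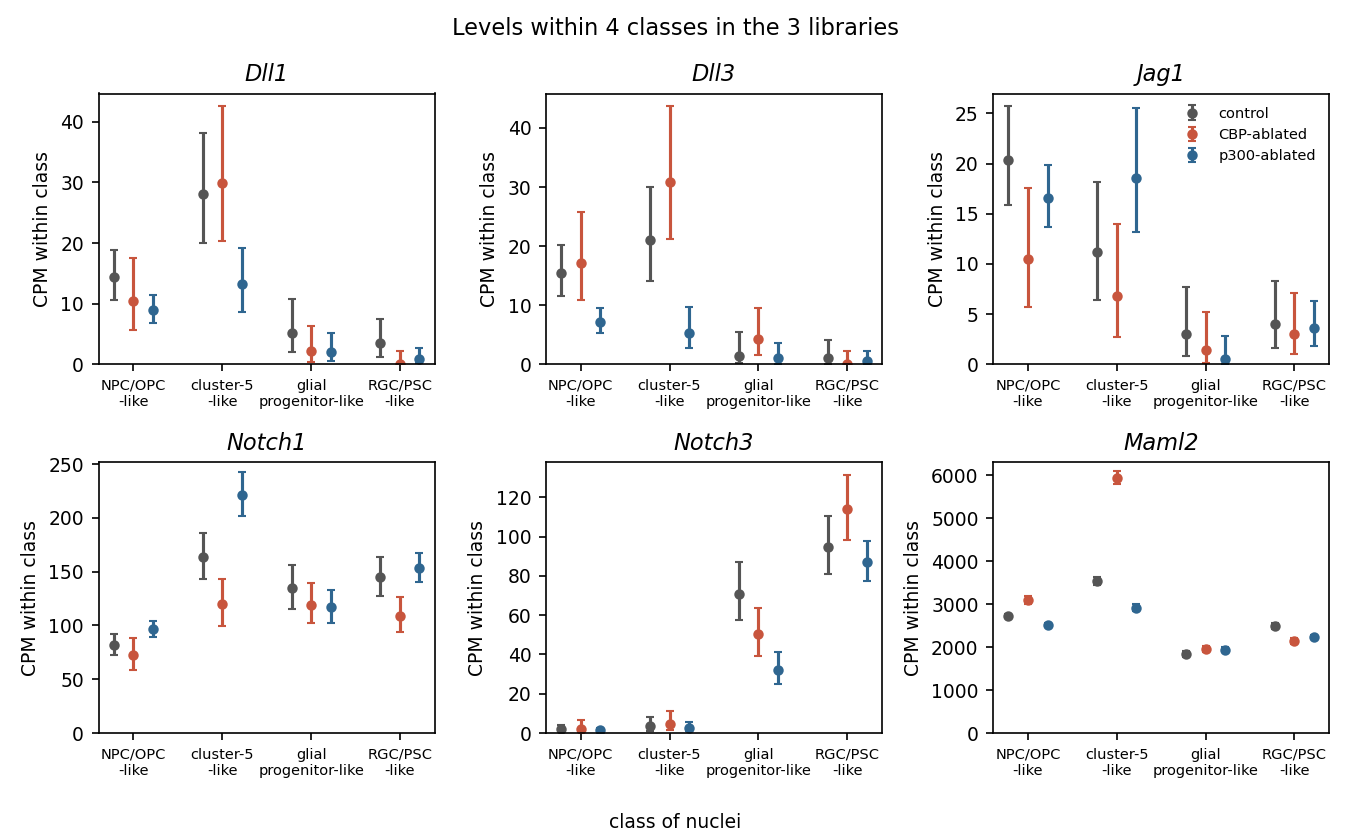
Level in CPM within class (vertical axes from 0) of 6 genes in 4 classes of nuclei in the 3 libraries. Points are sums over nuclei and bars 95% Poisson intervals. Dll3 in NPC/OPC-like nuclei is at 15.5, 17.2 and 7.20 CPM, and Notch3 in glial progenitor-like nuclei at 71.1, 50.3 and 32.3 CPM in control, CBP-ablated and p300-ablated nuclei.

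The cluster-5-like class was not made of the same nuclei in the 3 libraries. At a finer resolution of 1.2, chosen after its values were seen, it fell into a group led by Kcnj6, a potassium channel gene, and a group led by Gpr149. The Kcnj6-led group held 57.8% of the class in control (244 nuclei), 6.19% after CBP ablation (19 nuclei) and 90.5% after p300 ablation (458 nuclei). The Gpr149-led group held 41.7% (176 nuclei), 93.5% (287 nuclei) and 8.89% (45 nuclei). Each ablated library therefore drew most of its class from a different group, and both Delta-like ligands were higher in the Gpr149-led group of control, at 42.7 CPM each, than in the Kcnj6-led group, at 19.9 CPM for Dll1 and 8.82 for Dll3.

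Inside the groups the differences in ligand level were smaller or rested on few UMIs. In the Kcnj6-led group Dll1 was at 19.9 CPM in control and 11.1 after p300 ablation, a ratio of -0.84 (-1.81 to 0.16), and Dll3 at 8.82 and 5.30 CPM, a ratio of -0.74 (-2.23 to 0.81). In the Gpr149-led group Dll1 was at 42.7, 29.2 and 40.9 CPM, the last from 6 UMIs, and the p300-ablated ratio was -0.06 (-1.65 to 1.28). Dll3 in the Gpr149-led group was at 42.7, 31.3 and 6.82 CPM, the last from 1 UMI, with a p300-ablated ratio of -2.65 (-8.01 to -0.02). The CBP-ablated ratios in that group were below 0, at -0.55 (-1.41 to 0.33) for Dll1 and -0.45 (-1.29 to 0.41) for Dll3. For Dll1, no interval inside a group was clear of 0.

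**Figure D3:**
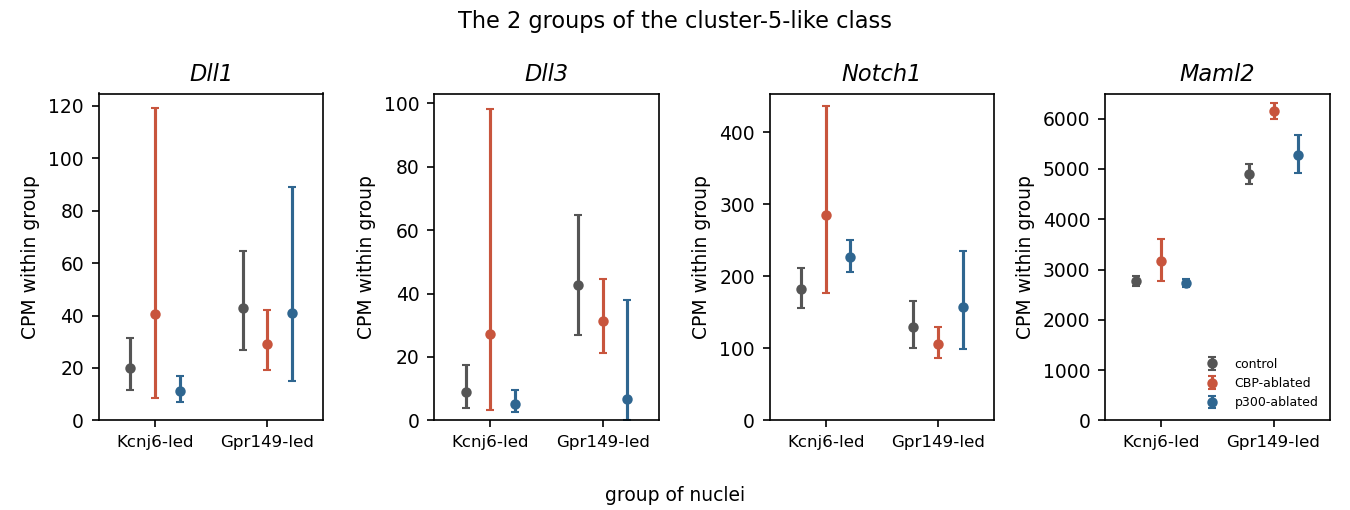
Level in CPM within group (vertical axes from 0) of Dll1, Dll3, Notch1 and Maml2 in the 2 groups of the cluster-5-like class, named by their leading gene, in the 3 libraries, with 95% Poisson intervals. Maml2 is higher in the Gpr149-led group in each library (4899 against 2771 CPM in control), and the wide bars belong to the 19 CBP-ablated and 45 p300-ablated nuclei.

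Among the receptors, Notch1, known for maintaining neural stem cells, lay below control in the CBP-ablated library and above it in the p300-ablated library. It had 1507 UMIs in control (92.4 CPM), 782 after CBP ablation (61.3 CPM) and 2168 after p300 ablation (115 CPM). The ratios were -0.59 (-0.72 to -0.47) and 0.31 (0.22 to 0.41). With equal class weights they were -0.07 (-0.31 to 0.16) and 0.07 (-0.09 to 0.24), both with 0 inside the interval. They rested on cluster 12, which held 79 Notch1 UMIs, and without it they were -0.21 (-0.40 to -0.02) and 0.17 (0.03 to 0.30), both clear of 0. Over whole libraries without the astrocyte-like nuclei they were -0.63 and 0.28. The whole-library Notch1 difference of the CBP-ablated library stood beside more nuclei of the classes with little Notch1: oligodendrocyte-like nuclei had 15.1 CPM and committed oligodendrocyte precursor-like nuclei 27.0 CPM of it, and the part of this makeup in the ratio was not tested.

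Notch1 reached all classes. Its highest levels were 183 CPM in cluster 12, 180 in cluster-5-like, 140 in RGC/PSC-like and 123 in glial progenitor-like nuclei, where each range over the libraries overlapped that of the next class, and its lowest was 12.2 CPM in neuron-like nuclei. In RGC/PSC-like nuclei it was at 145 CPM in control, 109 after CBP ablation and 154 after p300 ablation, and the CBP-ablated ratio was -0.41 (-0.69 to -0.13). In cluster-5-like nuclei it was at 163, 120 and 221 CPM, with ratios of -0.45 (-0.77 to -0.13) and 0.44 (0.21 to 0.67).

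Of 8 classes with at least 50 Notch1 UMIs, the interval lay below 0 in 2 and above 0 in none for the CBP-ablated library, and above 0 in 3 and below 0 in none for the p300-ablated library. Those 3 were the cluster-5-like, NPC/OPC-like and committed oligodendrocyte precursor-like classes. Inside the groups of the cluster-5-like class the p300-ablated ratio was 0.32 (0.06 to 0.59) in the Kcnj6-led and 0.27 (-0.48 to 0.97) in the Gpr149-led group. The CBP-ablated ratio there was 0.65 (-0.08 to 1.31) from 19 ablated nuclei and -0.29 (-0.75 to 0.18), so the lower Notch1 of the whole class was not seen in the Kcnj6-led group.

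Notch2, a receptor also known from resting neural stem cells, had 1073, 895 and 1322 UMIs, or 65.8 CPM in control, 70.2 after CBP ablation and 70.0 after p300 ablation, and both ratios were 0.09, at intervals of -0.04 to 0.22 and -0.03 to 0.21. Neither interval was clear of 0, and without the astrocyte-like nuclei the ratios were 0.11 and 0.10. They were 0.04 (-0.20 to 0.29) and -0.10 (-0.32 to 0.11) with classes weighted equally. RGC/PSC-like, microglia-like and glial progenitor-like nuclei had 222, 206 and 185 CPM. RGC/PSC-like nuclei lay above glial progenitor-like nuclei in both ablated libraries. In control they were at 194 against 191 CPM, with overlapping intervals. The microglia-like range overlapped both classes, and each of these 3 lay above every other class, of which the highest library value was 100 CPM among classes with at least 50 nuclei. NPC/OPC-like nuclei were at 9.44 CPM. In RGC/PSC-like nuclei Notch2 was at 194 CPM in control, 242 after CBP ablation and 228 after p300 ablation, with ratios of 0.31 (0.10 to 0.53) and 0.23 (0.04 to 0.42). In committed oligodendrocyte precursor-like nuclei it was at 7.17, 19.6 and 9.36 CPM, a CBP-ablated ratio of 1.45 (0.54 to 2.49) from 12 and 56 UMIs, where 2.15% of 7539 genes were higher by at least 1. That class joined clusters 5 and 9, and cluster 9 gave 78 of its 396 control nuclei and 227 of its 615 CBP-ablated nuclei. The part of this makeup in the Notch2 ratio was not tested.

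Notch3, the receptor of radial glia and of mural cells, was lower in both ablated libraries. It had 607 UMIs in control (37.2 CPM), 307 after CBP ablation (24.1 CPM) and 403 after p300 ablation (21.3 CPM). The ratios were -0.63 (-0.83 to -0.43) and -0.80 (-0.99 to -0.62). Astrocyte-like nuclei, which only the control library held, were at 73.0 CPM and gave 286 of its 607 UMIs. Without them the ratios were -0.10 (-0.34 to 0.13) and -0.28 (-0.49 to -0.06), and with equal class weights, which leave out that class, they were -0.03 (-0.42 to 0.37) and -0.66 (-0.98 to -0.34).

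Most Notch3 was in the classes with glial or stem cell markers: RGC/PSC-like nuclei were at 95.7 CPM, astrocyte-like at 73.0 and glial progenitor-like at 48.7. The unnamed clusters 10 and 12 were at 45.5 and 39.4 CPM, while the other 7 named classes lay between 1.62 and 3.78 CPM. In glial progenitor-like nuclei Notch3 was at 71.1 CPM in control, 50.3 after CBP ablation and 32.3 after p300 ablation. The ratios there were -0.50 (-0.97 to -0.04) and -1.14 (-1.62 to -0.66), and 0.681% of 7484 genes were lower by at least 1 in the p300-ablated comparison. In RGC/PSC-like nuclei it was at 94.9, 114 and 87.1 CPM, and both intervals included 0. The markers of mural cells summed to 5.27, 5.57 and 5.46 CPM in the 3 libraries, of which 4, 2 and 4 of 5 had a UMI, with Kcnj8 at 0 in each; their part in the Notch3 ratios was not tested. An antisense gene, Gm17276, overlaps 21024 bases of Notch3 on the opposite strand, with 186, 75 and 196 UMIs of its own.

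**Figure D4:**
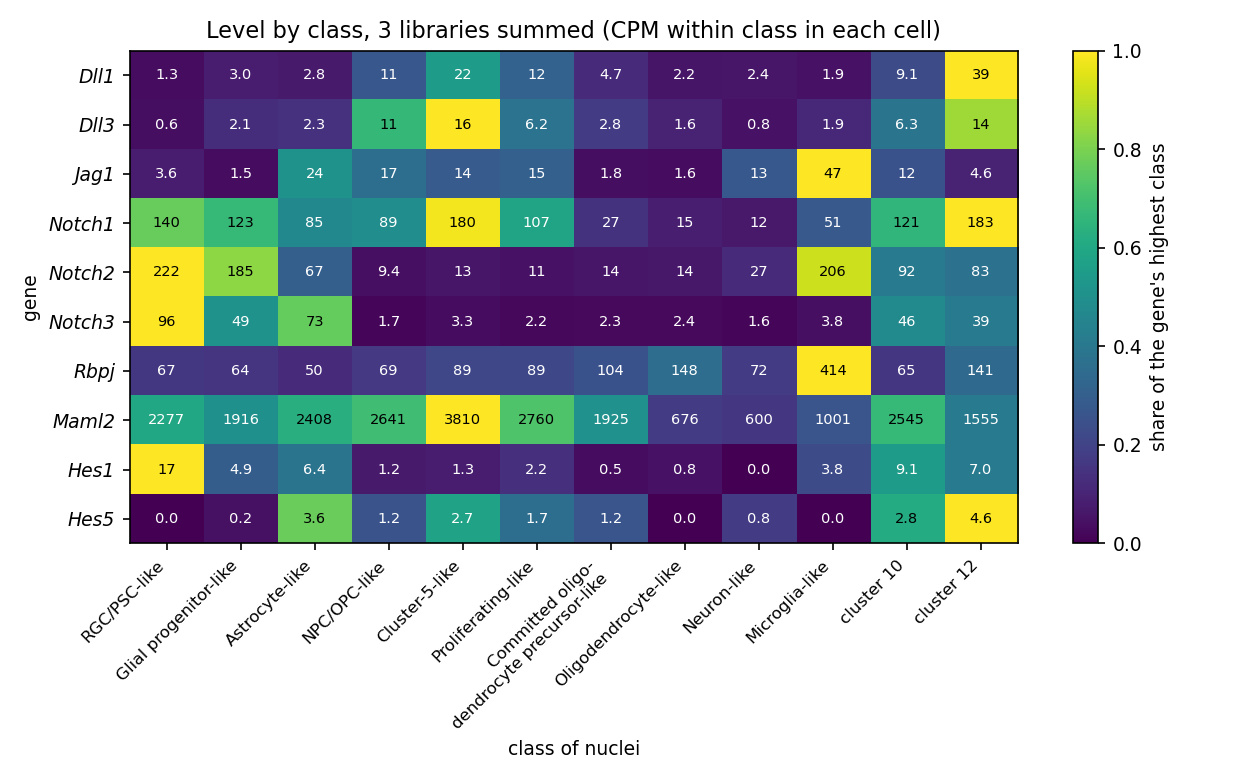
Level of each gene (rows, by role) in each of the 12 classes of nuclei (columns), the 3 libraries summed; each cell prints the CPM within class and its colour the share of the gene's highest class. Notch2 and Notch3 peak in RGC/PSC-like nuclei at 222 and 95.7 CPM, Jag1 and Rbpj in microglia-like nuclei at 47.2 and 414 CPM, and Dll3 and Maml2 in cluster-5-like nuclei at 16.2 and 3810 CPM, all over the 3 libraries summed.

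Rbpj, which encodes the DNA-binding protein of the pathway, had 1357 UMIs in control (83.2 CPM), 1293 after CBP ablation (101 CPM) and 1478 after p300 ablation (78.3 CPM). It was the only one of the 10 genes whose whole-library interval lay above 0 after CBP ablation, as did 30.4% of all genes, at 0.29 (0.17 to 0.40), and its p300-ablated ratio was -0.09 (-0.19 to 0.02). The order of classes for Rbpj differed from that of the receptors. Microglia-like nuclei were highest at 414 CPM and lay above every other class in all 3 libraries, oligodendrocyte-like nuclei followed with 148, cluster 12 with 141 from 61 UMIs and committed oligodendrocyte precursor-like nuclei with 104, and astrocyte-like nuclei were lowest at 50.3 CPM. Under equal class weights the CBP-ablated ratio was -0.02 (-0.23 to 0.19) and the p300-ablated ratio -0.33 (-0.52 to -0.14). Without cluster 12 they were 0.02 (-0.19 to 0.22) and -0.30 (-0.48 to -0.11). These are ratios of mean CPM over classes, so the high microglia-like level counted most in them. Without the astrocyte-like nuclei the ratios were 0.12 (0.000775 to 0.23) and -0.26 (-0.37 to -0.14). In none of the 9 classes compared was the CBP-ablated interval clear of 0. In the p300-ablated library it was so in microglia-like nuclei alone, at 460 CPM in control and 291 in the ablated library, from 131 and 41 UMIs, a ratio of -0.66 (-1.20 to -0.14).

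Maml2, a coactivator of the Mastermind-like family, was by far the most counted of the 10. It had 38463, 26543 and 42474 UMIs, or 2358 CPM in control, 2082 after CBP ablation and 2250 after p300 ablation. Reads in introns were counted and longer genes give more of them: Maml2 spans 411 kb, and per kb of gene span its control level was 5.73 CPM, against 0.418 for Jag1 to 1.57 for Notch1 among the other 9 genes. On that scale too Maml2 was highest. Its whole-library ratios were small, -0.18 (-0.20 to -0.16) and -0.07 (-0.09 to -0.05), and without the astrocyte-like nuclei they were -0.17 and -0.06. With nuclei of at least 1500 UMIs thinned to 1500, and the others left out, they were -0.04 and -0.06. With equal class weights the ratio after CBP ablation turned to 0.23 (0.19 to 0.26), and after p300 ablation it was -0.06 (-0.10 to -0.03). Cluster-5-like nuclei entered the CBP-ablated value with 3544 CPM in control and 5939 after CBP ablation. The Gpr149-led group of that class, in which Maml2 was higher, held 41.7% of its control nuclei and 93.5% of its CBP-ablated nuclei. Equal class weights leave such makeup inside a class in place, and its part in the ratio was not tested.

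Across classes the CBP-ablated ratio of Maml2 ran from -0.58 to 0.74. In cluster-5-like nuclei it was at 3544 CPM in control, 5939 after CBP ablation and 2918 after p300 ablation, with ratios of 0.74 (0.69 to 0.80) and -0.28 (-0.33 to -0.23). In neuron-like nuclei it was at 704, 469 and 741 CPM, with a CBP-ablated ratio of -0.58 (-0.85 to -0.32). Of 10 classes, the CBP-ablated interval lay above 0 in 5 and below 0 in 4. Inside the Gpr149-led group Maml2 was at 4899, 6159 and 5287 CPM and the CBP-ablated ratio was 0.33 (0.26 to 0.40), and inside the Kcnj6-led group it was at 2771, 3166 and 2736 CPM with a ratio of 0.19 (-0.01 to 0.39). The p300-ablated ratio was -0.02 (-0.09 to 0.05) in the Kcnj6-led and 0.11 (-0.01 to 0.23) in the Gpr149-led group, so neither group showed the lower level of the whole class.

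The target genes span 3.41 kb (Hes1) and 1.45 kb (Hes5) and were counted least. Hes1, a repressor that maintains progenitors, had 66 UMIs in control (4.05 CPM), 37 after CBP ablation (2.90 CPM) and 108 after p300 ablation (5.72 CPM). The ratios were -0.48 (-1.10 to 0.12) and 0.4998 (0.04 to 0.96), the latter just short of 0.5. RGC/PSC-like nuclei held 52.6% of all Hes1 UMIs, at 16.6 CPM, and in that class Hes1 was at 12.2 CPM in control, 14.6 after CBP ablation and 19.97 after p300 ablation, with a ratio of 0.72 (-0.01 to 1.499). The p300-ablated library held 17.9% of its nuclei in that class and control 9.97%, and under equal class weights the p300-ablated ratio of Hes1 was 0.04 (-0.75 to 0.83), or 0.74 (0.07 to 1.40) without cluster 12. The CBP-ablated ratio was -0.45 (-1.65 to 0.75) with equal weights and 0.31 (-0.80 to 1.41) without cluster 12. Cluster 12 entered the control mean with 17.7 CPM from 3 UMIs, and held 0 Hes1 UMIs in both ablated libraries. Classes with no Hes1 UMIs add no width to the equal-weight intervals, which are therefore too narrow to show a ratio clear of 0. Cluster 10, with 61.7% of nuclei called doublets, entered the p300-ablated ratios at 2.99 CPM in control and 15.0 after p300 ablation. Those values came from 2 and 12 UMIs, and their part in the ratios was not tested. Without the astrocyte-like nuclei the whole-library ratios were -0.19 (-0.87 to 0.49) and 0.79 (0.26 to 1.35).

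Hes5, a Hes gene widely used as a readout of Notch activity in neural stem cells, was near the limit of detection. It had 30 UMIs in control (1.84 CPM), 5 after CBP ablation (0.392 CPM) and 24 after p300 ablation (1.27 CPM), where 3 UMIs stand for 0.184, 0.235 and 0.159 CPM. The CBP-ablated ratio was -2.23 (-3.95 to -0.85) and the p300-ablated ratio -0.53 (-1.37 to 0.29). Of the 30 control UMIs 14 were in astrocyte-like nuclei, and without that class the ratios were -1.72 (-3.52 to -0.20) and -0.02 (-0.99 to 0.99). Weighting classes equally, they were -2.78 (-4.86 to -0.70) and 0.49 (-1.10 to 2.07), so the direction after p300 ablation was not fixed. Cluster 12 entered the control mean with 5.91 CPM from 1 UMI. Without that cluster the ratios were -1.83 (-3.55 to -0.10) and 0.69 (-0.50 to 1.88). Classes with no Hes5 UMIs add no width to the equal-weight intervals, with or without cluster 12. Those intervals are therefore too narrow to show a ratio clear of 0. In NPC/OPC-like nuclei there were 6, 0 and 8 UMIs and in cluster-5-like nuclei 4, 0 and 8, and none was seen in RGC/PSC-like, oligodendrocyte-like or microglia-like nuclei of any library. At this depth the CBP-ablated NPC/OPC-like class, with 378 nuclei, allowed a Hes5 level of up to 2.25 CPM for its count of 0 (3 UMIs, or 2.76 CPM by the exact Poisson limit), above the 1.72 CPM of control, so a difference inside the class was not detectable.

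**Figure D5:**
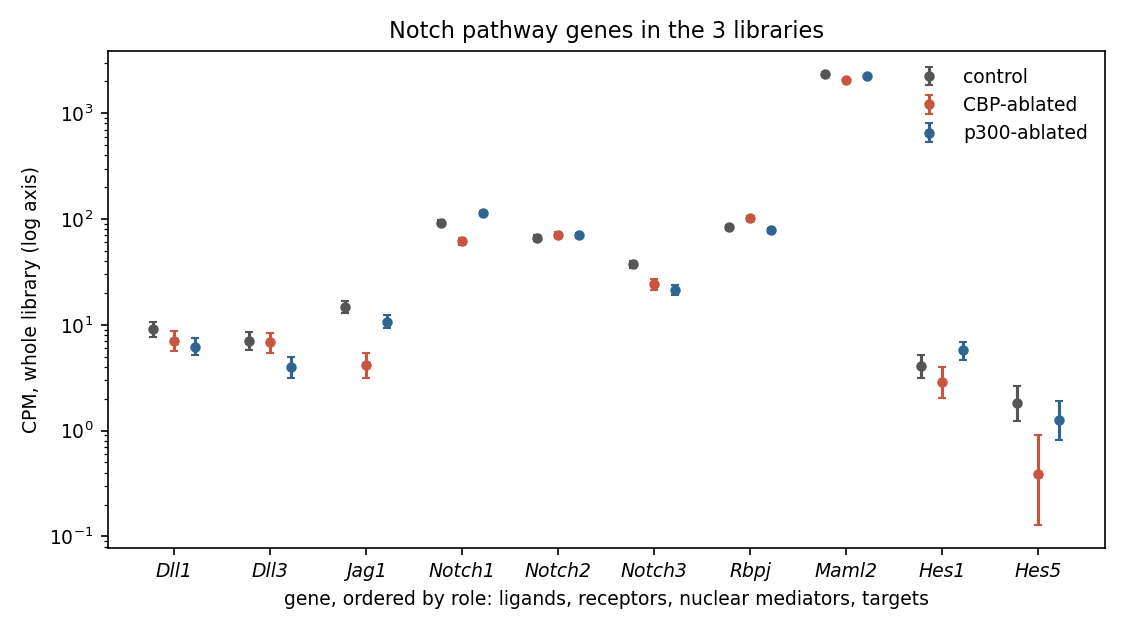
Whole-library level in CPM (log axis) of the 10 genes in the control, CBP-ablated and p300-ablated libraries, with 95% Poisson intervals. Jag1 is lowest after CBP ablation (4.16 CPM), Notch1 lowest there and highest after p300 ablation (61.3 and 115 CPM), and Hes5 is under 2 CPM in all 3.

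A further list of 62 Notch pathway genes was taken by role, and 46 of them had at least 100 UMIs in each comparison. The 46 were not the same: Mfap2 reached 100 UMIs only in the CBP-ablated comparison and Neurl1a only in the p300-ablated comparison. In the CBP-ablated library 5 of the 46 were lower and 2 higher by at least 0.5, with a median of 0.04, where 12.2% and 10.6% of all genes were. By at least 1, 1 was lower and 1 higher, beside 3.99% and 2.89%. Mfap2, a microfibril protein, was higher by that much, at 1.26 (0.70 to 1.85), from 41 to 77. Among those lower, and chosen after their values were seen, were Dner and Cntn6, both non-canonical ligands, Lfng, which adds sugars to Notch receptors, and Hey2, a target gene. Dner had 3906 UMIs in control and 1852 after CBP ablation, at a ratio of -0.72 (-0.80 to -0.64). It was also lower inside classes, at -0.89 (-1.09 to -0.68) in RGC/PSC-like and -0.87 (-1.10 to -0.64) in cluster-5-like nuclei, while neuron-like nuclei were at 0.39 (0.03 to 0.76). By role, 0 of 9 proteases that cut the receptor, 0 of 5 nuclear coactivators and 0 of 10 corepressors passed 0.5.

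In the p300-ablated library 2 of the 46 genes of that comparison were lower and 4 higher by at least 0.5, beside 10.3% and 6.01% of all genes. In either direction 0 passed 1, beside 2.12% lower and 0.694% higher, and the median was -0.00080. Those higher were Neurl1a, Numbl, Tle2 and Tle3, and those lower Mib2 and Psenen, also named after their values were seen. Tle2, a Groucho-type corepressor, was higher by 0.79 (0.56 to 1.03).

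Over 33 pairs of class and library, the genes closest in pattern to Notch2 were Mgmt, Tlcd2 and Foxo3 (Pearson r of 0.96, 0.93 and 0.92), and those closest to Notch3 were Pdpn, Ephx1 and Gli3 (each 0.94). Notch1 lay closest to E130114P18Rik, Ckb and Rbm20 (0.88, 0.88 and 0.87), Dll1 to Moxd1, Zc3h15 and Ran (0.82, 0.80 and 0.79), and Jag1 to Fam20c, Plekho1 and B3galnt1 (0.73 each). Rbpj lay closest to Ell2, Picalm and Cept1 (0.93, 0.92 and 0.91), and Maml2 to Ptprz1, Sox6 and Kiz (0.92, 0.89 and 0.87). Among the 10 genes themselves the closest pairs were Notch1 with Maml2 (0.73) and Notch2 with Notch3 (0.71). These pairs share libraries and classes and are not independent, and Dll3, Hes1 and Hes5, with under 300 UMIs, were left out.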

How the data were processed

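Reads were aligned by the authors to GRCm38 (mm10) with Cell Ranger 3.1 (Seurat 2.3.4 and FastQC 0.11.9 are also named in the submitters' processing notes), over exons and introns, and the deposited matrices hold the resulting counts of UMIs per gene and nucleus, with no normalization. All nuclei were kept. UMIs were summed per library and class and divided by the total (CPM), with exact Poisson intervals for levels and exact conditional binomial intervals for ratios, each at 95%. For ratios with equal class weights a normal approximation was used, in which a class with no UMIs of a gene adds no width.

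Clusters came from Seurat 5.3.0 (R 4.3.3) run on the 1610 variable genes left once 7 Notch pathway genes were removed (20 components, resolution 0.6, seed 1). A cluster took a name when 60% of a marker list, and at least 3 genes, had a UMI in 10% of its nuclei at 2 times the level elsewhere. Doublets were scored with Scrublet (scanpy 1.11.5) and kept in the main values. Gene spans are those of GENCODE on GRCm38. The sums and intervals were checked on simulated data. Ratios were computed for every gene that reached 100 UMIs over both libraries (50 within a class), with 1 library per condition and therefore no p-value.

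The 10 genes, the pathway list and the marker lists were chosen with earlier results of these data known. All 10 genes are named. Of the pathway list, genes past a log2 ratio of 1 were to be named (1 result is not reported here), and others are marked as chosen after their values were seen. The 3 most similar genes were taken by Pearson correlation of log2(CPM + 10).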

Additional observations from a re-analysis of the deposited data

Results flagged for a closer look

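Notch1 had ratios of opposite sign in the 2 ablated libraries, each with its counting interval clear of 0: the CBP-ablated minus the p300-ablated log2 ratio was -0.90. The difference was not tested, since each condition had 1 library. With equal class weights the ratios were -0.07 and 0.07, and without cluster 12 -0.21 and 0.17.

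Maml2 was higher than control in CBP-ablated nuclei of the cluster-5-like class and lower in those of the neuron-like class, and the 2 log2 ratios differed by 1.33. This difference was not tested either. In the cluster-5-like class most nuclei of the CBP-ablated library belonged to the Gpr149-led group (287 of 307), against 176 of 422 in control, and Maml2 was higher in that group in every library.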

How the results depend on the processing

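With equal class weights, the counts cover the 9 genes with at least 100 UMIs. Of these, 0 were past a log2 ratio of 1 after CBP ablation and 2 after p300 ablation (Dll1 and Dll3). Hes5, left out of the counts, was at -2.78 after CBP ablation, or -1.83 without cluster 12. The median of all 10 genes after CBP ablation was -0.024. The count past 0.5 after CBP ablation stayed at 3 under these weights, with Jag1 lower as before and Dll1 and Dll3 higher in place of Notch1 and Notch3. Without cluster 12, equal weights gave 1 gene past 1 after CBP ablation (Jag1) and 0 after p300 ablation. With a minimum of 20 UMIs Hes5 entered and 2 genes were past 1 after CBP ablation. Without astrocyte-like nuclei 1 gene, Dll3, was past 1 after p300 ablation. With nuclei thinned to 1500 UMIs, and those with fewer left out, 1 gene, Notch3, was past 0.5 after p300 ablation. Centring the ratios on the median of all genes put 1 gene of the pathway list, Neurl1a, past 1 after p300 ablation. Over all alternatives, 39 of 46 counts and medians stayed near the reported value, as did 114 of 140 whole-library ratios, 125 of 140 levels in the leading class and 134 of 140 ratios with equal class weights (the last 2 kinds under other resolutions or seed, pathway genes kept for clustering, 10% free RNA subtracted, or doublets left out, and the last also without cluster 12). Within the 2 groups of the cluster-5-like class 6 of 16 ratios stayed near the value of the class, 8 moved and 2 were counted as turned. Notch1 after CBP ablation went to 0.65 in the Kcnj6-led group, and Maml2 after p300 ablation to 0.11 in the Gpr149-led group. For both, the interval of the whole class was clear of 0. Dll1 and Dll3 after CBP ablation also changed sign, from 0.10 and 0.56 in the class to -0.55 and -0.45 in the Gpr149-led group. Their intervals included 0 in the class and in the group. These groups, and leaving out cluster 12 or the microglia-like nuclei, were chosen after seeing the data. No paired analysis was possible because each condition had 1 library and no result came from a test. Depth limited Hes5, Hes1 and Dll3 most, and intervals leave out the spread between cultures.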
